A study of Oryza sativa with 24 samples.

Results

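The genes described here are 300 genes that were listed in the embryo tables of the series, were missing from its endosperm tables, and had the highest mean embryo level among such genes. Of 16897 genes with embryo values and 14049 with endosperm values, 13166 had both. This left 3731 embryo-only genes, or 22.1% of the embryo genes. The 300 members, 8.04% of the embryo-only genes and 1.78% of all embryo genes, were chosen from these by the mean log2 CPM. This is the average level over the embryo libraries, on a log2 scale, of read counts scaled to library size (CPM). The choice therefore used the presence of a gene in a table and its mean level. It did not use the difference between accessions, although the mean level comes from the same embryo libraries as that difference, so a gene with many reads in a single group can enter through that group.

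The study asked which genes differ, as the seed matures, between a rice accession that germinates readily on the panicle and one that resists this pre-harvest sprouting (PHS). Embryo and endosperm of Gopum, the susceptible accession, and Jowoon, the resistant one, were taken at 3 stages counted in days after heading (30, 45 and 60 DAH), giving 12 groups with 2 libraries each by the labels, 24 in all. No treatment or introduced allele separates the groups: Gopum and Jowoon are accessions of Oryza sativa, and each group is an accession, a tissue and a stage. GJ30, GJ45 and GJ60 name the comparison of Jowoon with Gopum at each stage, and positive log2 fold changes stand for a higher level in Jowoon. The 12 embryo libraries are split over these comparisons, which share no library. The mean log2 CPM of a gene was the same in all 3, and whether they were fitted together is not stated. If they were, the estimates of spread behind their p-values are shared and not independent. RNA was pooled from several plants, the methods speak of more replicates than the labels give, and the number that entered a comparison cannot be read from the tables. The p-values therefore measure the spread between these samples only.

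In a cereal grain the embryo is the living miniature plant. The starchy endosperm around it fills with starch and storage protein and loses its living cells as the grain dries. The embryo holds the tissues that either stay dormant or resume growth, and abscisic acid (ABA) and gibberellin (GA) act on that decision in opposite directions. Genes with reads in the embryo and too few in the endosperm to be listed can belong to organs that only the embryo has, such as the scutellum, plumule and radicle. In whole embryos, more cells of a type and more RNA per cell cannot be told apart.

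The members ranged from 3.13 to 6.77 in mean log2 CPM, or 8.78 to 109 CPM, with a median of 3.56 (11.8 CPM). By the rule itself, each member lay at or above the level of the other embryo-only genes, whose median was 1.79. Their label as abundant means no more than this. It does not hold against the embryo as a whole, since the median of all embryo genes, 3.87, lay above that of the members. The last genes inside the rule had a mean log2 CPM of 3.1348 and 3.1337, and the first outside it had 3.1335 and 3.1324, so the lower edge of the list passes through a continuous range. Levels are scaled to library size and not to gene length, so they do not order the genes by the number of transcripts.

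Embryo genes missing from the endosperm tables became rare as the level rose. Below a mean log2 CPM of 1, 83.0% of the embryo genes were missing there, and from 1 to 2 the share was 71.9%. It was 41.2% from 2 to 3, 10.3% from 3 to 4 and 2.31% from 4 to 5. From 5 to 6 it was 0.537% and from 6 to 7 it was 0.285%, or 4 genes. The 1517 embryo genes above the highest member were all in both tissues, which follows from the rule. In the members' own range of level there were 9083 embryo genes, of which the members were 3.3%. Missing from the endosperm tables means not listed: the filter that the authors put on low genes is not stated, and the lowest level listed for endosperm was 0.27.

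**Figure D1:**
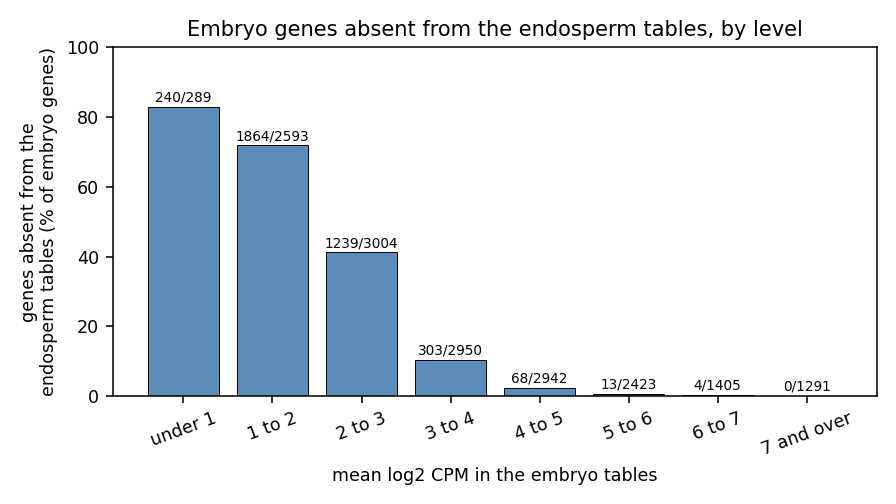
The bars give the percentage of embryo genes that are absent from the endosperm tables, for bins of the embryo level (mean log2 CPM), with the numbers of genes above each bar. The share falls from 83.0% in the lowest bin to 0 of 1291 genes in the highest.

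The tissue labels were checked with lists of genes known to mark embryo and starchy endosperm, used by ID only because the reference in use here did not pair the IDs with names. All 5 embryo marker IDs were in the embryo tables, at 4.46 to 11.26 in mean log2 CPM, and 4 of them were also in the endosperm tables, at 5.14 to 10.28. The fifth, OS03G0727000, was itself a member, with a level of 4.46 and -0.10, -0.04 and 0.71 as its log2 fold changes at the 3 stages, none of them called. Of 6 starchy endosperm marker IDs, 6 were in the endosperm tables, at 4.23 to 16.84, and 4 were in the embryo tables, at 0.98 to 9.28. Of the embryo list, 5 of 5 were higher or listed only in embryo, and of the endosperm list 0 of 6. For OS03G0699000 of the embryo list the levels were almost equal, at 9.95 in embryo and 9.89 in endosperm. The levels of each tissue were normalised separately, so only their order within a tissue is given firmly. The tally is therefore no firm check of the labels.

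A gene was called when its fold change was at least 2 and its false discovery rate (FDR) at most 0.05, with p-values adjusted over all genes of the table by the Benjamini-Hochberg method. At every stage more members were called lower than higher in Jowoon. At GJ30, 74 members (24.7%) were lower and 10 (3.33%) were higher, against a background of 9.34% lower and 8.3% higher among all 16897 embryo genes. At GJ45, 64 members (21.3%) were lower and 18 (6.0%) higher, where the background was 10.6% lower and 10.9% higher. At GJ60, 91 members (30.3%) were lower and 34 (11.3%) higher, with 19.8% of all genes lower and 15.5% higher. Members called in either direction numbered 84 (28.0%), 82 (27.3%) and 125 (41.7%), beside 17.6%, 21.5% and 35.3% of all embryo genes. The share of members called lower was therefore above the background at each stage and the share called higher was below it.

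The median log2 fold change of the 300 was -0.65 at GJ30, where 227 members (75.7%) had a negative value. It was -0.42 at GJ45, with 199 negative (66.3%), and -0.38 at GJ60, with 189 negative (63.0%). Over all embryo genes the medians were -0.05, -0.03 and -0.15. The interquartile range of the members ran from -1.25 to -0.02 at GJ30, from -1.01 to 0.34 at GJ45 and from -1.36 to 0.49 at GJ60, so the spread of values was widest at GJ60. The full range ran from -4.27 to 5.40 at GJ30 and from -8.49 to 5.0 at GJ60. A standard error of a single gene, implied by its p-value, had a median of 0.47, 0.45 and 0.47 over the members. Among the members that were not called, 153 of 216 (70.8%) were negative at GJ30 and 135 of 218 (61.9%) at GJ45, beside 52.0% of the uncalled embryo genes at both stages. At GJ60 the uncalled members were close to the background, with 98 of 175 negative (56.0%) beside 54.2%.

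**Figure D2:**
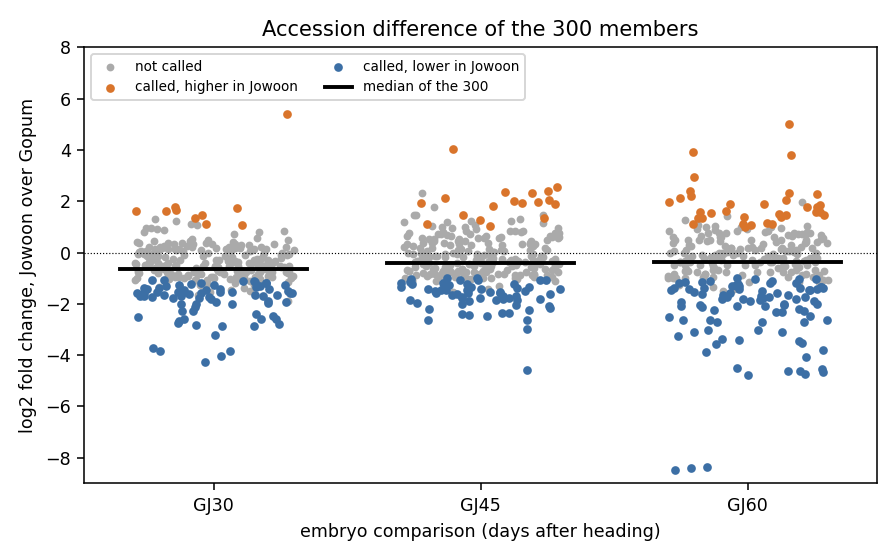
Each point is a member, placed by its log2 fold change (Jowoon over Gopum, vertical axis) in the 3 embryo comparisons, with sideways scatter for legibility. Coloured points were called, and black bars mark the medians of -0.65, -0.42 and -0.38. More points are called below 0 than above it at each stage, and 3 members lie below -8 at GJ60.

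Genes of both tissues within the members' range of level, 8783 in number, were set beside the members. They share the ends of the range but not the levels within it, since 215 of the 300 members lay from 3 to 4. From 4 to 5 and from 5 to 6 there were 2942 and 2423 embryo genes, of which 68 and 13 were members. The median implied SE at GJ30 was 0.38 in the genes of both tissues and 0.47 in the members. Of these genes of both tissues, 8.77%, 9.12% and 19.9% were lower in Jowoon at GJ30, GJ45 and GJ60, and 8.2%, 9.79% and 14.7% were higher. Their medians were 0.01, -0.01 and -0.12. The other 3431 embryo-only genes, which have fewer reads, had 11.1%, 15.7% and 22.3% lower, between the shares of both other sets at each stage, and 7.61%, 8.86% and 15.2% higher. Their medians were -0.29 and -0.31 at GJ30 and GJ45, and at GJ60 -0.45, below that of the members. A negative median was thus shared by both sets of embryo-only genes. These shares are descriptions, since the genes of a set are not independent of each other, and no test of one set against another was made.

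**Figure D3:**
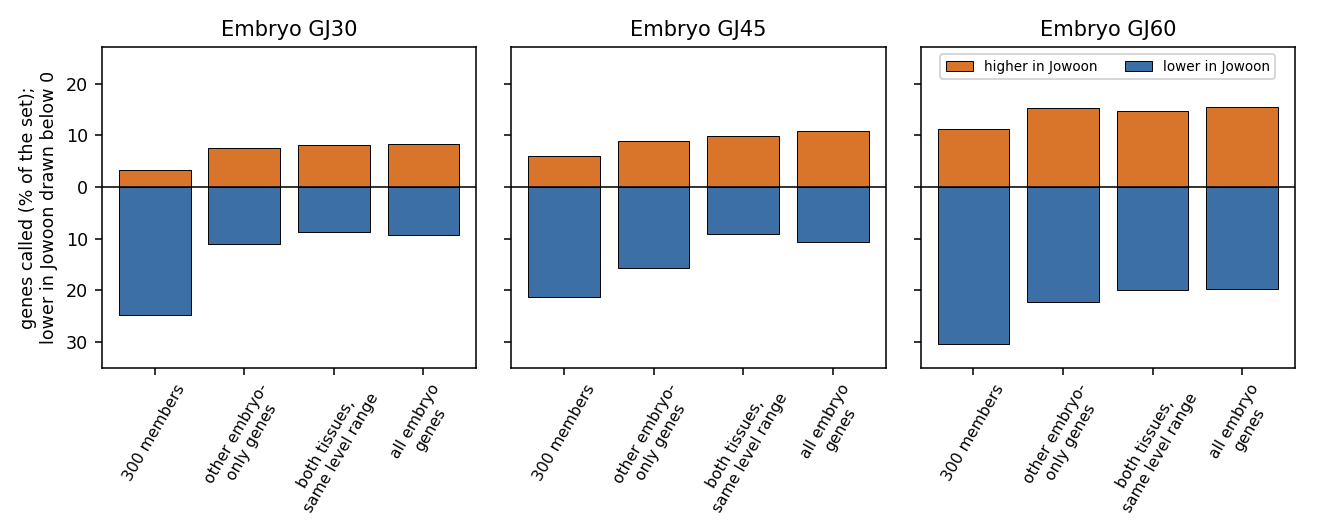
Bars give the percentage of each gene set called higher (above 0) or lower (below 0) in Jowoon, in the embryo at GJ30, GJ45 and GJ60. The sets are the 300 members, the other 3431 embryo-only genes, the 8783 genes of both tissues in the same range of level, and all 16897 embryo genes. The members have the longest lower bar and the shortest higher bar at each stage.

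More members were called lower than higher at each depth of the list. Among ranks 1 to 100 by level, 31, 24 and 32 members were lower in Jowoon at GJ30, GJ45 and GJ60, and 2, 3 and 12 were higher. The next 100 had 25, 21 and 35 lower and 6, 9 and 11 higher. The last 100 had 18, 19 and 24 lower and 2, 6 and 11 higher. Over all embryo genes 9.34%, 10.6% and 19.8% were lower at these stages, and 8.3%, 10.9% and 15.5% higher. The lower share of the last 100 lay nearest this background at GJ60. The median log2 fold change at GJ30 was -0.83, -0.71 and -0.43 in these bands, in order of falling level.

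Values that bear on the makeup of the samples are given beside this lean. The 5 embryo marker IDs had a median log2 fold change of -0.23 at GJ30, with 2 called lower, and of 0.50 and 0.87 at GJ45 and GJ60, with 2 called higher at each. The 4 starchy endosperm marker IDs in the embryo tables had medians of -0.83, -0.58 and -0.37. None of these 4 was called at GJ30 or GJ45, and 1 was called in each direction at GJ60, where their values ran from -5.04 to 1.13. The median of the embryo list thus lay below 0 at GJ30 and above 0 at the later stages. The medians of the starchy endosperm list and of the members lay below 0 at each stage. Of the 5 embryo marker IDs, 4 were also listed for endosperm. The part of tissue makeup in the members' lean was not tested.

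Across the stages, 201 members (67.0%) were called at least once, beside 53.7% of all embryo genes. Of the 300, 99 were called at no stage, 127 at 1 stage, 58 at 2 and 16 at all 3. Only lower calls were made for 147 members (49.0%, beside 4218 of the 16897 embryo genes), only higher calls for 35 (11.7%, beside 20.9% of all embryo genes), and calls of both directions for 19 (6.33%, beside 7.82%). A negative log2 fold change at all 3 stages, called or not, was found for 120 members (40.0%), against 18.5% of all embryo genes and 16.1% of the genes of both tissues in range. A positive value at all 3 was found for 21 members (7.0%), against 12.8% of all genes.

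Calls in the same direction at all 3 stages were made for 13 members (4.33%), 11 of them lower and 2 higher in Jowoon. The background was 1.89% of all embryo genes. OS07G0656600, at 3.28 in mean log2 CPM, had the highest values of the members: it stood at 5.40 ± 0.54 in GJ30, 4.03 ± 0.55 in GJ45 and 5.0 ± 0.58 in GJ60 (log2 fold change ± implied SE), with deposited edgeR FDR of 1.95e-20, 9.37e-11 and 1.06e-15. The other higher member, OS08G0193200 (level 3.66), had 1.60 ± 0.38, 1.48 ± 0.39 and 2.4 ± 0.42. Both stood well above their errors at each stage. On the lower side, OS04G0593400 (level 3.26) had -3.84 ± 0.60, -2.35 ± 0.46 and -3.02 ± 0.55. OS12G0548700, rank 11 in level at 5.24, had -2.87 ± 0.49, -2.42 ± 0.47 and -3.01 ± 0.52, nearly the same difference at each stage. None of these 4 IDs is described in the sources used here, and none of their differences between stages passed the test given below.

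The functions of only 9 members are described in the sources used here, all of them through the study's own lists of hormone and stress genes. Those lists were drawn from DEGs of these same samples, so the presence of a change in them is not independent evidence. Of 261 listed genes in the embryo tables, 62 were embryo-only and 9 were members. The other 291 members had no description. Sorted by words fixed for function groups, 2 of the 9 fell under hormone and 1 under defence and redox, and the other 6 under no group. These words missed the members that the study lists under ABA and jasmonate, which are hormones too. At GJ30, 4 of the 9 were lower in Jowoon and 0 higher, at GJ45 4 were lower and 0 higher, and at GJ60 5 were lower and 1 higher. Over all embryo genes 9.34%, 10.6% and 19.8% were lower and 8.3%, 10.9% and 15.5% higher. A listed gene had to be called at some stage, so the number of calls among the 9 follows from the lists. Their direction was not compared with that of the other listed genes.

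Both ABA-listed members code for proteins of the TB2/DP1 and HVA22 family. HVA22 was first known in barley, as a gene of the aleurone that ABA and stress induce. OS10G0177400 (level 4.31) was lower in Jowoon at GJ30, at -1.96 ± 0.38 (FDR 6.52e-06), and at GJ60, at -1.86 ± 0.36 (FDR 3.07e-06). At GJ45 it had -0.83 ± 0.33 and was not called (FDR 0.0512). OS03G0250200 (level 3.22) was called at GJ60 only, at -2.62 ± 0.59 (FDR 7.40e-05), beside -1.36 ± 0.54 at GJ30 and -0.63 ± 0.50 at GJ45. All 6 values of the pair were negative, and in both genes the value nearest 0 was that of GJ45.

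The GA-listed member is OsGASR2, OS04G0465300, of the GAST family of small cysteine-rich proteins, named after a gibberellin-stimulated gene of tomato. With a level of 4.29 it was lower in Jowoon at GJ30, at -1.55 ± 0.52 (FDR 0.0201), and had -0.59 ± 0.56 and -0.34 ± 0.60 at the later stages, within about 1 implied SE of 0. The auxin-listed member, OS01G0680900 (level 3.96), is described as similar to dopamine beta-monooxygenase and as an auxin-responsive protein. It was lower at GJ45, at -1.83 ± 0.45 (FDR 8.48e-04), and had -0.52 ± 0.46 and -0.78 ± 0.45 at GJ30 and GJ60. The jasmonate-listed member is OsLOX2, OS03G0738600, a lipoxygenase. Lipoxygenases add oxygen to polyunsaturated fatty acids, a step that opens jasmonate synthesis. OsLOX2 (level 4.80) had -0.96 ± 0.71 and -0.45 ± 0.70 at GJ30 and GJ45 and was called only at GJ60, at -4.50 ± 0.84 (FDR 1.12e-06).

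The member described under defence, OS04G0465600, belongs to the Bet v I family, the fold of the PR-10 pathogenesis-related proteins. It had the lowest value of any member at GJ30, at -4.27 ± 0.63 (FDR 1.34e-09), and was also lower at GJ45, at -2.17 ± 0.65 (FDR 0.00677), and at GJ60, at -2.32 ± 0.62 (FDR 0.00104). It is the only 1 of the 9 that was called at all 3 stages.

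Under drought and salt, 3 members were listed. The first 2 are putative methyltransferases. The DUF248 gene OS01G0883900 (level 3.18) was lower at GJ30, at -1.74 ± 0.64 (FDR 0.0343), and at GJ45, at -2.62 ± 0.55 (FDR 7.01e-05). At GJ60 it had -0.15, with an error of 0.60 taken from the other stages because its p-value was too near 1 to imply one. OS06G0687450 (level 3.52), similar to a dehydration-responsive protein, was lower at GJ45, at -1.34 ± 0.41 (FDR 0.0089), and at GJ60, at -1.19 ± 0.41 (FDR 0.0127), and had -0.83 ± 0.39 at GJ30. OsBURP03, OS01G0733500 (level 4.08), is similar to RD22, a protein of the BURP domain whose gene responds to dehydration and ABA in Arabidopsis. It was the only 1 of the 9 called higher in Jowoon, at 1.91 ± 0.53 in GJ60 (FDR 0.00152), after -0.92 ± 0.50 at GJ30 and 0.16 at GJ45, where the error of 0.52 was again imputed.

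**Figure D4:**
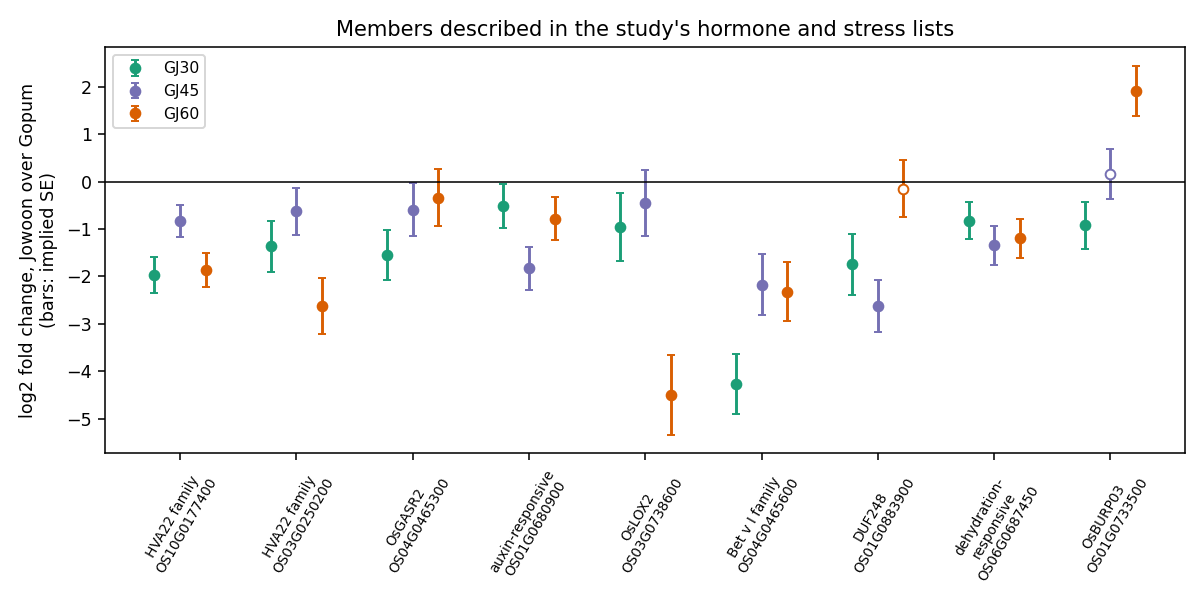
Points give the log2 fold change (Jowoon over Gopum, vertical axis) of the 9 described members at GJ30, GJ45 and GJ60, and bars 1 implied SE on each side; open points have an imputed SE. Apart from OsBURP03 at GJ45 and GJ60, each point lies below 0, and the lowest are OsLOX2 at GJ60 (-4.50) and the Bet v I gene at GJ30 (-4.27).

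The 10 members of highest level did not share one pattern. OS01G0726700, the first at 6.77, was higher in Jowoon at GJ45 only, at 2.11 ± 0.72 (FDR 0.0183), and had -0.30 and -0.82 at the other stages. OS05G0412800 (6.05) was lower at GJ30, at -1.92 ± 0.46 (FDR 4.66e-04), and higher at GJ60, at 1.57 ± 0.46 (FDR 0.00268), with -0.40 between them. OS05G0389000 (5.28) was lower at each stage, at -2.51 ± 0.33, -1.15 ± 0.31 and -1.72 ± 0.33. These 3 genes were thus called at 1, 2 and 3 stages.

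OS12G0640000 (5.49) was lower at GJ45, at -1.91 ± 0.36, and at GJ60, at -1.39 ± 0.40, and missed the fold threshold at GJ30, at -0.99. OS03G0149200 (5.37) was lower at GJ30, at -1.79 ± 0.42, and at GJ60, at -2.10 ± 0.44, and had -0.52 at GJ45. OS09G0570850 (5.36) was lower at GJ30 only, at -2.88 ± 0.50 (FDR 4.22e-07), and had 0.34 and -0.35 later. OS06G0513050 (5.38) was called at no stage, with 0.14, -1.13 and -1.51 and errors of 0.73 to 0.78. The other 3 of the 10 lie near the start of chromosomes 11 and 12 and are given next. The 10 IDs carry no description in the sources used here.

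The number in a gene ID follows the order of genes along its chromosome, and 8 members have numbers under 150000 on chromosomes 11 and 12, out of 167 and 176 embryo genes there. In rice these chromosome ends are known to carry a recent duplication, so that genes of each end have near-identical copies on the other. The counting of reads between such copies is uncertain, and no source used here pairs the copies. The following pairs of members were chosen after their values were seen, because their numbers nearly match. OS11G0120300 (level 5.44) had 1.47 ± 0.47, 1.82 ± 0.46 and -3.12 ± 0.52, and OS12G0120100 (level 5.02) had 1.29 ± 0.60, 2.35 ± 0.60 and -4.79 ± 0.75. Both were called higher at GJ45 and lower at GJ60. OS11G0102200 (4.21) had 0.35, -0.83 and -2.32 ± 0.47, and OS12G0101800 (4.10) had -0.13, -0.63 and -2.24 ± 0.48, so both were called at GJ60 only. OS11G0114900 (6.15) had 0.23, -0.34 and 0.60, and OS12G0114500 (6.14) had 0.90, -0.10 and 0.09, with no call for either. The first and the last pair had the same signs at each stage, and the other pair at GJ45 and GJ60. Whether the members of a pair are separate measurements was not tested.

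**Figure D5:**
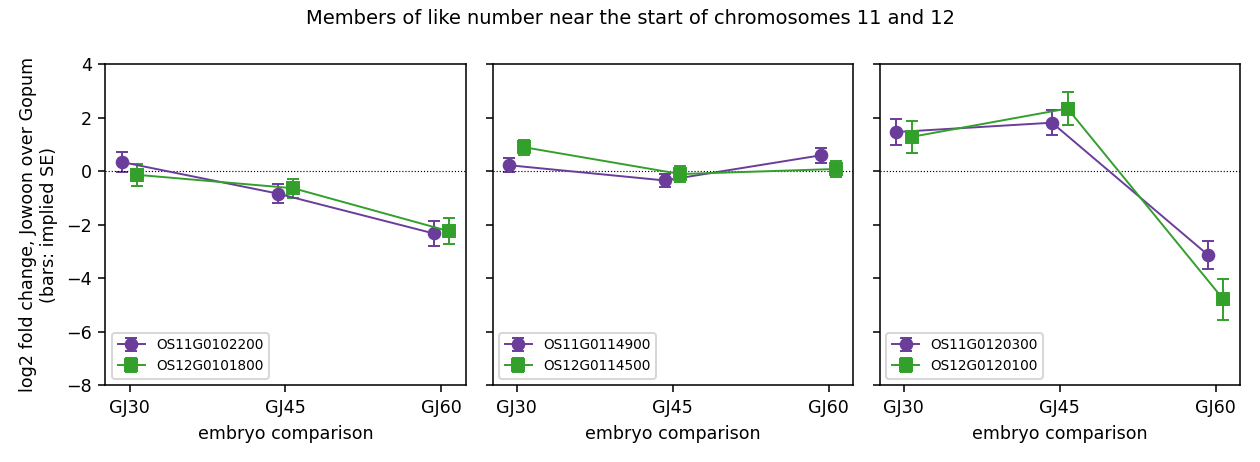
Each panel shows the log2 fold change (Jowoon over Gopum, vertical axis) at GJ30, GJ45 and GJ60 for a chromosome 11 member and the chromosome 12 member of nearly the same number, with bars of 1 implied SE. The SE is imputed for OS12G0101800 at GJ30 and for OS12G0114500 at GJ45 and GJ60. The right panel falls from 1.82 and 2.35 at GJ45 to -3.12 and -4.79 at GJ60.

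The members were spread over the 12 chromosomes, from 12 on chromosome 11 to 56 on chromosome 1, or from 1.33% of the embryo genes on chromosome 7 to 2.46% on chromosome 9. At GJ60 the chromosome 11 members had a median of -1.84, with 8 lower and 1 higher, and the 19 of chromosome 12 had -1.39, with 11 lower and 3 higher. The 22 of chromosome 9 had 0.16, with 3 lower and 5 higher. Beside these, all embryo genes at GJ60 had a median of -0.15, with 19.8% lower and 15.5% higher. Such shares were not computed for all genes of a single chromosome. A lean of the members was therefore not set against that of their whole chromosome, and the 2 are not told apart here. These splits were read after the values were seen and were not tested. Members next to each other among the embryo genes formed 8 pairs with 15 genes. A run of 3 on chromosome 4 joined OS04G0465100, OsGASR2 and the Bet v I gene OS04G0465600. The profiles within this run differed: the first had -1.09, 2.31 and 1.0 at GJ30, GJ45 and GJ60, where the Bet v I gene was lower at each.

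A call at one stage and not at another does not show a change, so the difference between log2 fold changes was tested over the combined implied SE, two-sided, with Benjamini-Hochberg adjustment over 16790 genes. The test takes the errors of the compared stages as independent. An SE could be had for 297 members. Between GJ30 and GJ45, 16 members (5.39%) differed, 12 of them moving towards Jowoon and 4 towards Gopum, with 4.6% of all genes as background. Between GJ30 and GJ60, 78 differed (26.3%), 43 towards Jowoon and 35 towards Gopum, beside 30.9% of all genes. Between GJ45 and GJ60, 89 differed (30.0%), 42 towards Jowoon and 47 towards Gopum, beside 34.5%. The members' share was close to the background for GJ30 and GJ45 and below it for both comparisons with GJ60. At an adjusted p of at most 0.01 the splits were 2 towards Jowoon and 3 towards Gopum, 21 and 23, and 23 and 31, so the majority turned for the first 2 of these comparisons. After the median of all genes was taken off, it turned for GJ45 and GJ60, to 50 and 44.

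Calls were also set side by side. Of the members called at both GJ30 and GJ45, 26 were lower at both (8.67% of members, beside 2.89% of all embryo genes). A further 4 were higher at both (1.33% beside 3.45%) and 0 were opposite. Opposite calls for these stages were made for 28 of all embryo genes (0.166%). Of the members called at both GJ30 and GJ60, 27 were lower at both (9.0% beside 2.68%) and 4 higher at both (1.33% beside 1.36%). Opposite calls were made for 9 (3.0% of members, beside 4.12% of all genes). For GJ45 and GJ60, 21 were lower at both (7.0% beside 2.43%) and 2 higher at both (0.667% beside 2.02%). The 13 opposite calls were 4.33% of members beside 5.37% of all genes. The background shares of opposite calls were likewise higher in the comparisons with GJ60. The 3 largest falls from GJ45 to GJ60 ran from -10.43 to -8.33 and the 3 largest rises from 3.59 to 5.77, all in members with no description. At these levels such falls may leave few reads or none for Jowoon at GJ60. Their size may then depend on the small count that the fit adds, so it is not taken as a measured ratio. Without counts per library this was not tested.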

How the data were processed

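Libraries of mRNA were made from total RNA of embryo and endosperm and sequenced. The submitters' processing notes name FastQC, Trimmomatic, HISAT2 and edgeR. Per the methods, reads were aligned to the IRGSP rice genome, counted per gene with featureCounts and scaled by trimmed mean of M-values. Whether counting used strand is not given in the sources used here. The authors deposited 6 tables of their own comparisons. Their columns are the log2 fold change, the mean log2 CPM, the p-value and the FDR of each gene, and these deposited columns were used as they stand because no table held counts. The planned count test and all work per library were therefore not run, the depth of each library is unknown, and precision was read from the p-values. The deposited FDR equalled a Benjamini-Hochberg adjustment of the deposited p-values. A gene had the same mean log2 CPM in all 3 tables of its tissue. The sign was read from genes described in the study as up- or down-regulated.

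Members were the 300 embryo genes of highest mean log2 CPM that the endosperm tables did not list. The implied SE was the size of the log2 fold change over the normal quantile of its p-value, where that quantile was at least 0.5, and otherwise the median of the gene's other stages. Code was tested on simulated data. Members and lists were chosen with earlier results of these data known. The rule for named genes took the 10 of highest level, the 5 highest and 5 lowest of those called alike at all 3 stages, the 3 largest changes each way from GJ45 to GJ60, the members in the study's lists, the 3 of highest level in each function group and the edge of the rule. Because 0 of 300 member IDs matched the RefSeq table, the undescribed genes called alike were limited to 2 each way, those of largest change with stage and the edge of the rule are given as values only, and no sequence is shown. Analyses used Python 3.11.15, pandas 2.3.3, numpy 2.4.6, scipy 1.17.1 and matplotlib 3.10.9.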

Additional observations from a re-analysis of the deposited data

Results flagged for a closer look

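For 13 of the members named above, the accession difference changed between embryo stages by the test of the difference itself (adjusted p over all 16790 genes, implied SE). Such changes were common in the embryo: 4.6% of all genes differed from GJ30 to GJ45, 30.9% from GJ30 to GJ60 and 34.5% from GJ45 to GJ60. Among the members the shares were 5.39%, 26.3% and 30.0%. Values are the later log2 fold change minus the earlier, and no explanation was tested. From GJ30 to GJ45, OS09G0570850 moved by 3.22 (adjusted p = 8.02e-04).

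From GJ30 to GJ60, OS05G0412800 moved by 3.50 (1.62e-06), OsBURP03 (OS01G0733500) by 2.83 (8.58e-04) and OS09G0570850 by 2.53 (0.00246), all towards Jowoon. Over the same stages OS12G0101800 moved by -2.11 (0.00519, with an imputed SE at GJ30) and OS11G0102200 by -2.67 (1.37e-04), towards Gopum. OsLOX2 (OS03G0738600) moved by -3.54 (0.00648), OS11G0120300 by -4.58 (2.70e-09) and OS12G0120100 by -6.08 (8.88e-09), also towards Gopum.

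From GJ45 to GJ60, the moves towards Jowoon were 2.47 for OS01G0883900 (0.0102, with an imputed SE at GJ60), 1.97 for OS05G0412800 (0.013) and 0.94 for OS11G0114900 (0.0454). Those towards Gopum were -1.49 for OS11G0102200 (0.0394), -1.61 for OS12G0101800 (0.024), -1.58 for OS03G0149200 (0.0304), -2.0 for OS03G0250200 (0.0325), -2.93 for OS01G0726700 (0.0136), -4.05 for OsLOX2 (0.00138), -4.94 for OS11G0120300 (7.26e-11) and -7.14 for OS12G0120100 (9.84e-12). OS11G0120300 and OS12G0120100, and likewise OS11G0102200 and OS12G0101800, are pairs of like number on chromosomes 11 and 12.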

How the results depend on the processing

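Of 62 counts and medians recomputed under other settings, 41 stayed within 1.5 times the value reported. No median changed sign, and lower calls stayed in the majority under each setting, but the majority direction of the differences between stages turned in the settings named in the text. A minimum fold change of 4 lowered the called members to 24, 23 and 54 at GJ30, GJ45 and GJ60, and those called alike at all 3 stages to 4, and the share of lower calls at GJ45 fell to 65.2%. An adjusted p of at most 0.01 for differences between stages left 5, 44 and 54 members. Taking off the median of all genes, -0.15 at GJ60, moved the members' median there to -0.22 and left 85 lower and 35 higher. Counts followed the length of the list while shares moved less. The 150 highest had 48, 41 and 64 called (32.0%, 27.3% and 42.7%), 5 alike at all 3 stages, and 10, 38 and 47 that differed between stages (GJ30 to GJ45, GJ30 to GJ60, GJ45 to GJ60). The 600 highest had 153, 167 and 243 called (25.5%, 27.8% and 40.5%), 22 alike, and 166 and 176 that differed for the last 2 of these pairs. Leaving out the members with intermediate ID numbers, or those at the start of chromosomes 11 and 12, were alternatives chosen after seeing the data, and both left the counts within 1.5 times. No paired analysis was possible because the tables hold no values per library. For the same reason leaving out each replicate, a replicate block and DESeq2 were not run, so a single library that decides a value would not be seen.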
